A study of Macaca mulatta with 2 samples.

Results

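*ADGRG1*, *ADGRG5* and *ADGRE5* are 3 of the 30 adhesion G protein-coupled receptor (GPCR) genes with an entry among the 35432 genes measured in circulating CD4+CD8+ double-positive (DP) T cells of a rhesus monkey. The choice was made with their levels in these cells already known. Their levels across bins of *GZMB*, the gene of the killing protease granzyme B, and across cells with or without *CX3CR1*, *EOMES*, *TRAV10*, *GNLY* or *CCR7* are therefore given as descriptions, without a test. The blood came from 1 healthy, untreated rhesus monkey aged 6 years, so there was no comparison of genotypes or treatments, and no biological replicate. CD4+ cells were taken with releasable magnetic beads, and the CD8+ cells among them were then taken with a further set of beads. The RNA of each cell was read from its 5' end together with antibody tags for CD4 and CD8, and every captured molecule was counted once by its unique molecular identifier (UMI).

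Adhesion GPCRs have a long extracellular part, which in most members is cut from the rest of the protein at a site within a GAIN domain while the pieces stay attached to each other. Binding of a matrix or cell surface ligand can pull this part away and expose a tethered peptide that activates the receptor, and many members signal through G12/13 proteins and *RHOA*. *ADGRG1*, also called GPR56, binds collagen III and transglutaminase and, in humans, marks NK cells and T cells with killing capacity. *ADGRE5*, better known as CD97, is carried by most leukocytes and rises on activated lymphocytes, and its ligands include *CD55*, *THY1* (CD90) and integrins.

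In the RefSeq annotation of Mmul_10, the assembly to which the reads were mapped, *ADGRG1* and *ADGRE5* lie on different chromosomes. *ADGRG1* (ENSMMUG00000015689) is on the plus strand of chromosome 20, at chr20:44855566-44904737. The next gene after *ADGRG1*, at a distance of 2953 bases, is *ADGRG3*, which had no UMI in any CD3E+ cell. *ADGRE5* (ENSMMUG00000005722) lies on the plus strand of chromosome 19, at chr19:13993332-14021236. The annotation gives *ADGRG1* 22 transcripts from 5 groups of start sites and *ADGRE5* 7 transcripts. Windows of 250 bases before some of these starts are shown because the genes differed in how their levels followed *GZMB*. *RUNX3* and *TBX21*, transcription factors of killer lymphocytes, were also higher in cells with 10 or more *GZMB* UMIs than in cells with 0. Their ratios between cells with and without an *ADGRG1* UMI are given below. Whether either factor acts on these genes was not tested. Capitals mark a RUNX core, TGTGGT, found on either strand. Both *ADGRG1* windows shown lie before starts inside the gene, the first used by 9 of its transcripts and the second by 3. The other *ADGRG1* windows are not shown, among them that before the outermost start (chr20:44855316-44855565, 6 transcripts).
ADGRG1 chr20:44862981-44863230 (plus strand): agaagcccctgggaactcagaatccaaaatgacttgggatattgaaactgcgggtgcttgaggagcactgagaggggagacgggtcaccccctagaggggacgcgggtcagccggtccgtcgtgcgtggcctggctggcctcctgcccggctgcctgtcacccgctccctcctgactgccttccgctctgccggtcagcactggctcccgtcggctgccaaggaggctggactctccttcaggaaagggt
ADGRG1 chr20:44873783-44874032 (plus strand): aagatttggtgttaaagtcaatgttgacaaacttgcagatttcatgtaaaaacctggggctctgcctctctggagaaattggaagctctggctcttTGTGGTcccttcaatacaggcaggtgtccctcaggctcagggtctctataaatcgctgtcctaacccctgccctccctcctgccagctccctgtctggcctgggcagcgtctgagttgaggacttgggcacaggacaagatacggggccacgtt
ADGRE5 chr19:13993082-13993331 (plus strand): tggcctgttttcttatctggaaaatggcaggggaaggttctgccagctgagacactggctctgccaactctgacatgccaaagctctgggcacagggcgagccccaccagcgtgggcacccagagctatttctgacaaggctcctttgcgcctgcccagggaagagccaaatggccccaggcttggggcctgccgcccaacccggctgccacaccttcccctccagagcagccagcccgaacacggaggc
The core lay 154 bases before the start of *ADGRG1* that is used by 3 transcripts and follows the second window. It was in 1 of the 6 windows of *ADGRG1* and *ADGRE5*, and in 11.2% of windows of the same length before 20776 RefSeq genes. None of the 6 windows held TCACAC (T-box core), CACGTG (E-box), CCGGAAG (ETS) or TGANTCA (AP-1) on either strand, which were in 10.4%, 6.44%, 7.05% and 5.15% of all windows. A match is a description of the letters and does not mark a site in use, and 1 of the 6 windows, not shown, overlapped an exon of *ADGRG1* itself.

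A further pair of sequences bears on how far the *ADGRE5* counts can be read. Its coding exons 5 and 6, counted in order over all transcripts and left out of some of them, occurred letter for letter in transcripts of the paralog *ADGRE2*. Exon 4, in all 7 transcripts and not shown, matched *ADGRE2* over a run of 136 of its 156 bases. *ADGRE2* lies on the minus strand of the same chromosome, at chr19:14368627-14412439.
ADGRE5 exon 5 chr19:14007211-14007342 (plus strand, in 5 transcripts): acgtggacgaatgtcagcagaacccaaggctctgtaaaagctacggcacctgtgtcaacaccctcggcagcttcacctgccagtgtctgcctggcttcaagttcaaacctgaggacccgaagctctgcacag
ADGRE5 exon 6 chr19:14007944-14008090 (plus strand, in 3 transcripts): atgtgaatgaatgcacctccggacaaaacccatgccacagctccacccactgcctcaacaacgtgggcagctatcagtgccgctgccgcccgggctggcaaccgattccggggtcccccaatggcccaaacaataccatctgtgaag
Of all runs of 90 bases in a transcript of *ADGRE5*, 4.90% to 15.2% also occurred in *ADGRE2*, and of those in the first 1000 bases, where a 5' library reads, 15.3% to 49.1% did. No run of 90 bases of *ADGRG1* was shared with another gene. What the counting did with reads from the shared stretches was not tested, so the *ADGRE5* and *ADGRE2* counts may be too low or exchanged in part, while *ADGRG1* carries no such limit.

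The deposited counts held 7923 barcodes and 32297887 UMIs. After the study's filter on genes and mitochondrial RNA, 7601 cells were left with a median of 3636 UMIs, and 7311 of them (96.2%) had at least 1 *CD3E* UMI and are called CD3E+ cells here. CPM, used throughout, is the UMIs of a gene summed over a group of cells, per 1000000 UMIs of that group. The summed level of 6 T cell markers lay between 2852 and 4185 CPM in the 4 *GZMB* bins. The 5 B cell markers summed to 77.3, 139, 84.6 and 43.8 CPM in order of rising *GZMB*. The 6 monocyte markers summed to 3.54, 4.80, 5.0 and 11.6 CPM, with *FCN1* at 0 in every bin. From *GZMB* 0 to *GZMB* 10 or more, *CST3* went from 0.628 to 7.57 CPM and *LYZ* from 0.514 to 2.38 CPM. *CD14* went from 2.23 to 1.34 CPM, *S100A8* from 0.114 to 0.297 CPM and *S100A9* from 0.0571 to 0 CPM. The 6 NK cell markers summed to 88.6 CPM in the lowest and 308 CPM in the highest bin, mostly through *KLRF1* with 12.0 CPM at *GZMB* 0 and 178 CPM at *GZMB* 10 or more, and through *TYROBP* with 75.6 and 123 CPM. *FCER1G* was at 0.114 and 5.94 CPM, *FCGR3* at 0.0571 and 0.891 CPM and *NCR1* at 0.571 and 0.594 CPM in the same bins, and *NCAM1* had 5 UMIs at *GZMB* 0 and 0 at *GZMB* 10 or more. *HBA* and *HBB*, the globin genes, summed to 344, 24.5, 67.8 and 130 CPM. The part of these genes in the results below was not tested. The median CD4 tag was 432 UMIs at *GZMB* 0 and 312 at *GZMB* 10 or more, and the median CD8 tag 338 and 365, against 90 and 139.5 in 86 cells with B cell genes and no CD3 gene (B gene cells). The lower quartile of the CD8 tag was 169 UMIs at *GZMB* 0 and 226.5 at *GZMB* 10 or more. Its upper quartile in B gene cells was 214.75, so the CD8 tags at *GZMB* 0 overlapped with theirs. No cell was left out by its tags.

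The CD3E+ cells were divided by their *GZMB* UMIs. There were 4038 cells with 0, 503 cells with 1-2, 1115 cells with 3-9 and 1655 cells with 10 or more *GZMB* UMIs, and their median depths were 4048.5, 3356, 3158 and 3416 UMIs. Levels are given with an exact 95% Poisson interval on the summed UMIs. A pair of groups is compared by the log2 ratio of their CPM, whose exact 95% interval treats the UMIs as a binomial draw between them. The cells stem from 1 animal and are not replicates of it, so every interval covers counting error only.

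*ADGRG1* was almost absent from cells without *GZMB* and rose at every bin. Its level was 0.80 CPM (0.437 to 1.34, 14 UMIs) at *GZMB* 0, 12.8 CPM (8.20 to 19, 24 UMIs) at *GZMB* 1-2, 39.8 CPM (33.8 to 46.5, 159 UMIs) at *GZMB* 3-9 and 77.7 CPM (71.2 to 84.6, 523 UMIs) at *GZMB* 10 or more. No interval overlapped that of a neighbouring bin, and the top bin, with 22.6% of the CD3E+ cells and 22.4% of their UMIs, held 72.6% of the *ADGRG1* UMIs. The ratio of *GZMB* 10 or more to *GZMB* 0 was 6.60 on the log2 scale (5.84 to 7.48), or 97.1-fold. The steps from bin to bin became smaller, with log2 ratios of 4.0, 1.64 and 0.97.

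**Figure D1:**
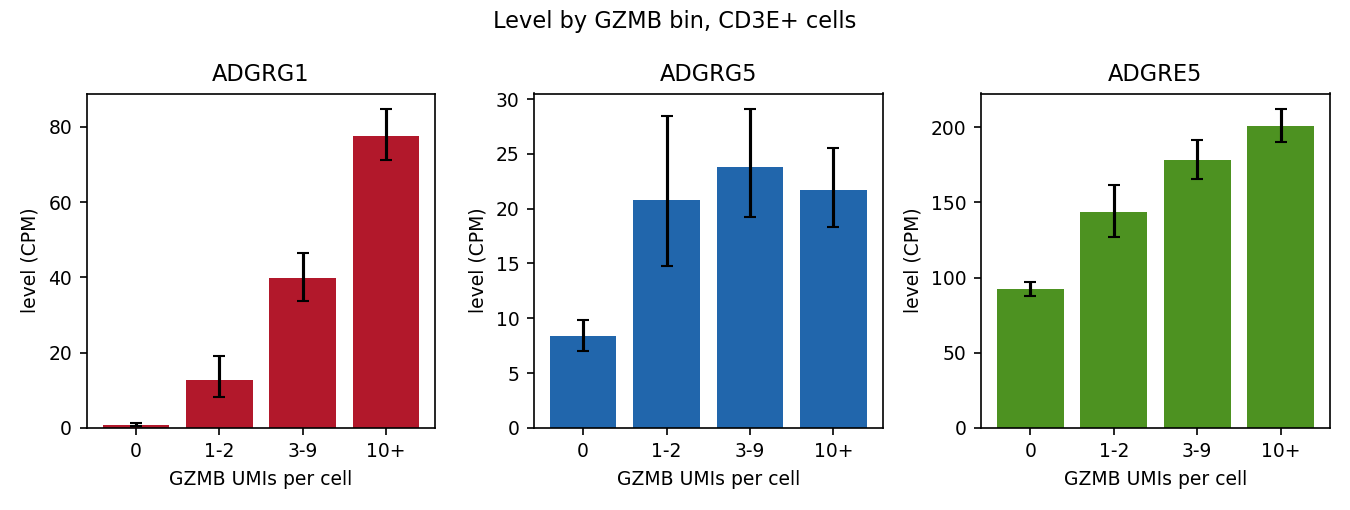
Level of each adhesion GPCR in CPM (y axis, one scale per gene) in CD3E+ cells with 0, 1-2, 3-9 and 10 or more *GZMB* UMIs (x axis), as bars from 0 with exact 95% Poisson intervals for counting error. *ADGRG1* climbed from 0.80 to 77.7 CPM over the bins, *ADGRE5* from 92.5 to 201 CPM, and *ADGRG5* reached 20.8 CPM in the second bin and stayed near it.

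*ADGRG5* had another course. Its level was 8.34 CPM (7.04 to 9.81, 146 UMIs) at *GZMB* 0, 20.8 CPM (14.8 to 28.4, 39 UMIs) at *GZMB* 1-2, 23.8 CPM (19.2 to 29.1, 95 UMIs) at *GZMB* 3-9 and 21.7 CPM (18.3 to 25.5, 146 UMIs) at *GZMB* 10 or more. The 3 bins with *GZMB* had overlapping intervals and all lay above the bin without it. The log2 ratio of the top to the bottom bin was 1.38 (1.04 to 1.72), and the steps were 1.32, 0.19 and -0.13.

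*ADGRE5* was present in cells without *GZMB* and rose by smaller steps. Its level was 92.5 CPM (88.1 to 97.1, 1620 UMIs) at *GZMB* 0, 143 CPM (127 to 162, 269 UMIs) at *GZMB* 1-2, 178 CPM (165 to 192, 712 UMIs) at *GZMB* 3-9 and 201 CPM (190 to 212, 1353 UMIs) at *GZMB* 10 or more. The intervals of the bins with 1-2 and 3-9 UMIs did not overlap, and those with 3-9 and 10 or more did by a small margin. The log2 ratio of the top to the bottom bin was 1.12 (1.01 to 1.22), and the steps were 0.63, 0.31 and 0.17.

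Against all 10018 genes with at least 50 UMIs in CD3E+ cells, the 3 genes are read on a scale of log2(CPM + 10), which understates the change of low genes. On it, 2.82% of genes were higher and 1.24% lower by at least 1 at *GZMB* 10 or more than at *GZMB* 0, and the median gene was at 0.12. *ADGRG1* at 3.02 and *ADGRE5* at 1.04 were among the higher genes, and *ADGRG5* at 0.79 was not. *ADGRG1* was rank 9 of the 10018 genes, *ADGRE5* rank 257 and *ADGRG5* rank 480. Since the genes were chosen on this contrast, the ranks describe the choice. With CPM + 1 the values of *ADGRG1*, *ADGRG5* and *ADGRE5* were 5.45, 1.28 and 1.11, and with CPM + 50 they were 1.33, 0.30 and 0.82.

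Finer steps of *GZMB* gave the same courses in more detail. *ADGRG1* was at 5.77 CPM with 1 *GZMB* UMI, 25.7 CPM with 2, 42.1 CPM with 3, 25.2 CPM with 4, 45.1 CPM with 5-6 and 40.7 CPM with 7-9. It was higher in each step from 10 UMIs on, with 71.0 CPM at 10-14, 74.0 CPM at 15-19, 86.2 CPM at 20-29 and 89.3 CPM at 30-146. The intervals of 7-9 (31.7 to 51.5 CPM) and 10-14 (61.1 to 82.1 CPM), on either side of the limit of the top bin, did not overlap. Among the 4 steps from 10 UMIs on, the intervals overlapped. *ADGRG5* lay between 15.1 and 30.7 CPM in all 10 steps with *GZMB*, in no order, and *ADGRE5* went from 133 CPM at 1 UMI to 222 CPM at 20-29 and 199.5 CPM at 30-146.

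**Figure D2:**
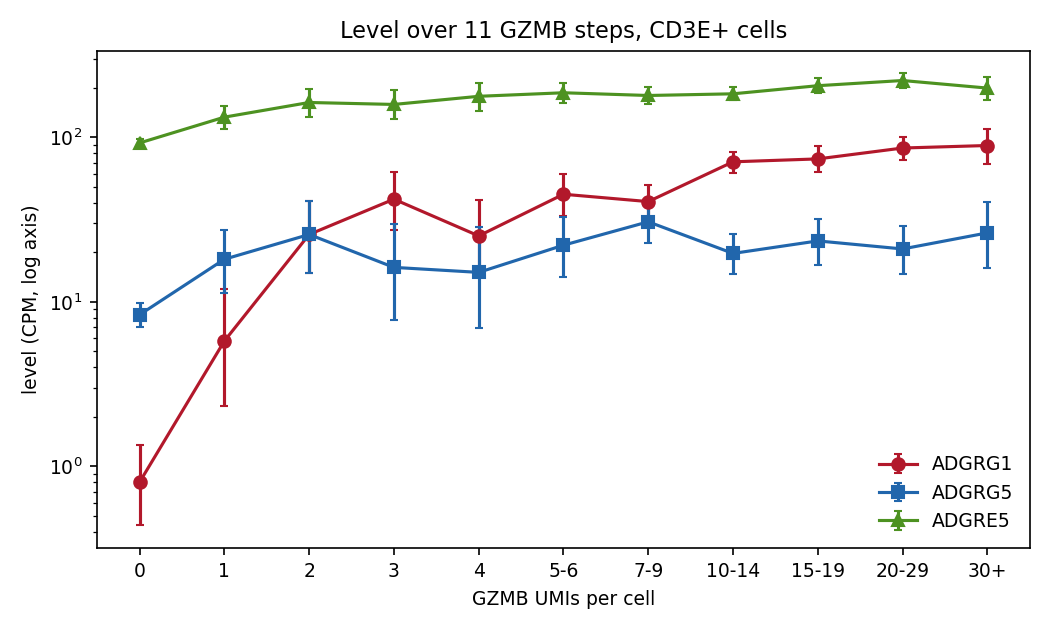
Level of the 3 genes in CPM (y axis, log scale) over 11 steps of *GZMB* UMIs per CD3E+ cell (x axis), as points with exact 95% Poisson intervals for counting error. *ADGRG1* lay between 25.2 and 45.1 CPM from 2 to 9 *GZMB* UMIs and between 71.0 and 89.3 CPM from 10 UMIs on.

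Most cells with a high *GZMB* count still had no *ADGRG1* UMI. A UMI of *ADGRG1* was found in 0.347% of cells at *GZMB* 0 (14 of 4038) and in 24.8% at *GZMB* 10 or more (411 of 1655), and in 0 of 86 B gene cells with a median depth of 4137.5 UMIs, which allows a share of up to 3.49%. At *GZMB* 10 or more, 1244 cells had 0, 318 had 1, 77 had 2 and 16 had 3 or more UMIs, and the highest count was 4. After each cell was thinned to 2000 UMIs the shares were 0.156%, 2.26%, 7.13% and 15.4% over the 4 bins, still set by the raw *GZMB* count, with 202, 60, 91 and 23 cells left out as too shallow. The gene was detected sparsely, and the cells without a UMI cannot be called negative for it.

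*ADGRG5* and *ADGRE5* differed from *ADGRG1* in their background. *ADGRG5* was found in 3.44% of cells at *GZMB* 0 and 8.40% at *GZMB* 10 or more (thinned, 1.72% and 3.74%), but also in 12 of the 86 B gene cells, at 40.3 CPM (23.0 to 65.5). *ADGRE5* was found in 28.2% of cells at *GZMB* 0 and 49.7% at *GZMB* 10 or more (thinned, 16.1% and 32.2%), with up to 15 UMIs in a cell, and was at 156 CPM (120 to 200) in B gene cells. The intervals of both genes in the B gene cells overlapped those of the T cells with *GZMB*, whereas *ADGRG1* had no UMI there.

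No tendency of the genes to be found in the same cells as *ADGRG1* was detectable at *GZMB* 10 or more. In cells thinned to 2000 UMIs, *ADGRG5* was seen in 3.19% (1.39 to 6.18, Clopper-Pearson) of 251 cells with an *ADGRG1* UMI and in 3.84% of 1381 cells without. *ADGRE5* was seen in 33.5% (27.7 to 39.7) and 32.0% of the same cells. At *GZMB* 3-9, *ADGRG5* was seen in 9.59% (3.94 to 18.8) of 73 cells with *ADGRG1* and 4.31% (3.11 to 5.80) of 951 without, and *ADGRE5* in 26.0% and 27.9%. Few cells had both *ADGRG1* and *ADGRG5*, with 7 at *GZMB* 3-9 and 8 at *GZMB* 10 or more. At *GZMB* 10 or more, the median CD8 tag was 389 UMIs in cells with *ADGRG1* and 361 UMIs in cells without it. The median CD4 tag was 301 and 316.5 UMIs, and for both tags the medians of both groups lay above those of the B gene cells.

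The other genes that gate these cells differed in their own relation to *GZMB*, which is given with each of them. *CX3CR1* encodes the fractalkine receptor of cytotoxic memory cells, and in the 1269 CD3E+ cells with a *CX3CR1* UMI the level of *ADGRG1* was 65.4 CPM against 15.4 CPM in the others, a log2 ratio of 2.08. On the CPM + 10 scale this was 1.57, rank 7 of the 10018 genes, of which 0.968% were higher by at least 1. *ADGRG5* was at 22.0 against 12.5 CPM (log2 ratio 0.82) and *ADGRE5* at 192 against 119 CPM (0.70), and neither reached 1 on that scale. By the count of *CX3CR1*, *ADGRG1* was at 56.6 CPM (48.8 to 65.3) with 1 UMI, 79.5 CPM (64.6 to 96.9) with 2 and 85.4 CPM (63.1 to 113) with 3 or more, with overlapping intervals. *GZMB* itself had a log2 ratio of 2.09 in the *CX3CR1* gate.

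*GNLY* encodes granulysin, another killing protein of the granules. *ADGRG1* was at 38.4 CPM in the 2942 cells with *GNLY* and 14.5 CPM in cells without, a log2 ratio of 1.41, and the ratios of *ADGRG5* and *ADGRE5* were 0.91 and 0.58. On the CPM + 10 scale *ADGRG1* was at 0.99, and none of the 3 genes passed 1, as 0.379% of genes did upwards and 0.299% downwards. The level of *ADGRG1* did not follow the *GNLY* count, with 42.2 CPM at 1 UMI, 48.7 CPM at 2 and 33.1 CPM (28.8 to 37.9) at 3 or more. The 867 GNLY+ cells without *GZMB* held 5 *ADGRG1* UMIs (1.37 CPM) and the 3171 cells with neither gene 9 UMIs (0.649 CPM), a log2 ratio of 1.08 (-0.85 to 2.81). *GZMB* had a log2 ratio of 1.32 in the *GNLY* gate.

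*CCR7*, the receptor that guides naive and central memory T cells to lymph nodes, had the lowest ratios of all 3 genes among the 5 gates. *ADGRG1* was at 4.60 CPM (3.4 to 6.08) in the 2163 cells with *CCR7* and 34.5 CPM in the others, a log2 ratio of -2.91, and on the CPM + 10 scale it was lower by at least 1, as were 1.23% of genes, while 0.349% of genes were higher by 1. *ADGRG5* was at 8.26 against 17.4 CPM (log2 ratio -1.07) and *ADGRE5* at 94.3 against 151 CPM (-0.68). With cells thinned to 2000 UMIs the ratio of *ADGRG1* was -3.77. *GZMB* had a log2 ratio of -3.05 in this gate.

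*EOMES* encodes a transcription factor of memory and regulatory type 1 T cells, and *TRAV10* is the alpha chain segment of invariant NKT cells. *ADGRG1* was lower with either gene than in the other CD3E+ cells. It was at 7.71 CPM (3.98 to 13.5, 12 UMIs) in 356 cells with *EOMES* and 24.8 CPM in the others, a log2 ratio of -1.69. In 247 cells with *TRAV10* it was at 8.13 CPM (3.72 to 15.4, 9 UMIs) against 24.5 CPM, a log2 ratio of -1.59. Both levels lay above the 0.80 CPM (0.437 to 1.34) of the CD3E+ cells without *GZMB*. On the CPM + 10 scale these were -0.97 and -0.93, short of a drop of 1, which 0.14% and 0.369% of genes showed in the *EOMES* and *TRAV10* gates. *ADGRG5* and *ADGRE5* had log2 ratios of -0.22 and 0.34 for *EOMES* and of -0.28 and -0.05 for *TRAV10*, and neither passed 1 on that scale, as 0.449% of genes did upwards with *EOMES* and 0.21% with *TRAV10*. The *TRAV10* ratio of *ADGRG5* turned to 0.63 when cells were thinned to 2000 UMIs. *GZMB* was lower too in both gates, with log2 ratios of -0.55 and -0.47.

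Because each gate differed in *GZMB*, the 3 genes were also compared among cells of a like *GZMB* count. With *GZMB* at 10 or more, *ADGRG1* was at 78.5 CPM in 792 cells with *CX3CR1* and 76.8 CPM in 863 cells without, a log2 ratio of 0.03 (-0.22 to 0.29). At *GZMB* 3-9 the ratio was 0.28 (-0.21 to 0.75). For *GNLY* the levels at *GZMB* 10 or more were 74.1 and 84.3 CPM, a ratio of -0.19 (-0.44 to 0.08). At these *GZMB* counts the differences between cells with and without a UMI of *CX3CR1* or *GNLY* were within counting error. For this split by UMIs, the intervals at *GZMB* 10 or more reach at most 0.29 and 0.44 in size on the log2 scale. *CX3CR1* had 1286 UMIs in the 1655 cells of that bin, with a UMI in 47.9% of them. Cells without a UMI cannot be called negative for it. Missed *CX3CR1* would make the groups more alike, so the ratio cannot bound a difference by expression itself.

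In CPM, the lower *ADGRG1* level in the other gates was still seen at *GZMB* 10 or more. It was 21.8 CPM (7 UMIs in 54 cells) with *EOMES* and 80.5 CPM without, a log2 ratio of -1.89 (-3.21 to -0.83). With *TRAV10* it was 29.8 CPM (6 UMIs in 37 cells) against 79.2 CPM, a ratio of -1.41 (-2.86 to -0.28). With *CCR7* it was 43.9 CPM (36 UMIs in 97 cells) against 82.4 CPM, a ratio of -0.91 (-1.44 to -0.42). These ratios rest on few UMIs, and with bins taken from thinned counts the *EOMES* ratio was -0.79 (-3.85 to 1.08) and the *TRAV10* ratio -0.49 (-3.55 to 1.39). The *TRAV10* ratio was -0.68 (-2.57 to 0.69) with cells thinned and -1.10 (-2.73 to 0.13) without the deepest 5% of cells, and all these intervals include 0. *GZMB* in CPM was lower too within the bin, at 3097 against 4532 CPM with *EOMES* and 2157 against 4783 CPM with *CCR7*. The bin is set by raw UMIs, and the cells with *CCR7* were deep, with a median of 7933 UMIs. This is above the 3416 UMIs of the whole bin and above 7848 UMIs, the limit of the deepest 5% of CD3E+ cells. Whether the cells with *CCR7* include doublets was not tested. The 97 cells with *CCR7* held 1768 *GZMB* and 36 *ADGRG1* UMIs, and the 1558 without it 28284 and 487. Per cell, neither gene was therefore lower with *CCR7*. The 54 cells with *EOMES* held 996 and 7, and the 1601 without it 29056 and 516, so only *ADGRG1* was lower per cell. The part of depth in the lower *ADGRG1* CPM was not tested.

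Most of the ratios of *ADGRG5* and *ADGRE5* at *GZMB* 10 or more were within counting error. *ADGRG5* had a log2 ratio of -0.83 (-2.73 to 0.56) with *EOMES*, -0.13 (-2.03 to 1.26) with *TRAV10* and -0.07 (-0.90 to 0.66) with *CCR7*. *ADGRE5* had a ratio of 0.19 (-0.18 to 0.53) with *EOMES* and -0.05 (-0.29 to 0.19) with *CCR7*. It was lower with *TRAV10*, at 114 against 204 CPM, a ratio of -0.83 (-1.50 to -0.24) on 23 UMIs. With thinning the *ADGRG5* ratios became 0.57 with *EOMES* and -0.92 with *CCR7*, and with bins from thinned counts the *ADGRE5* ratio with *CCR7* became -1.06.

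**Figure D3:**
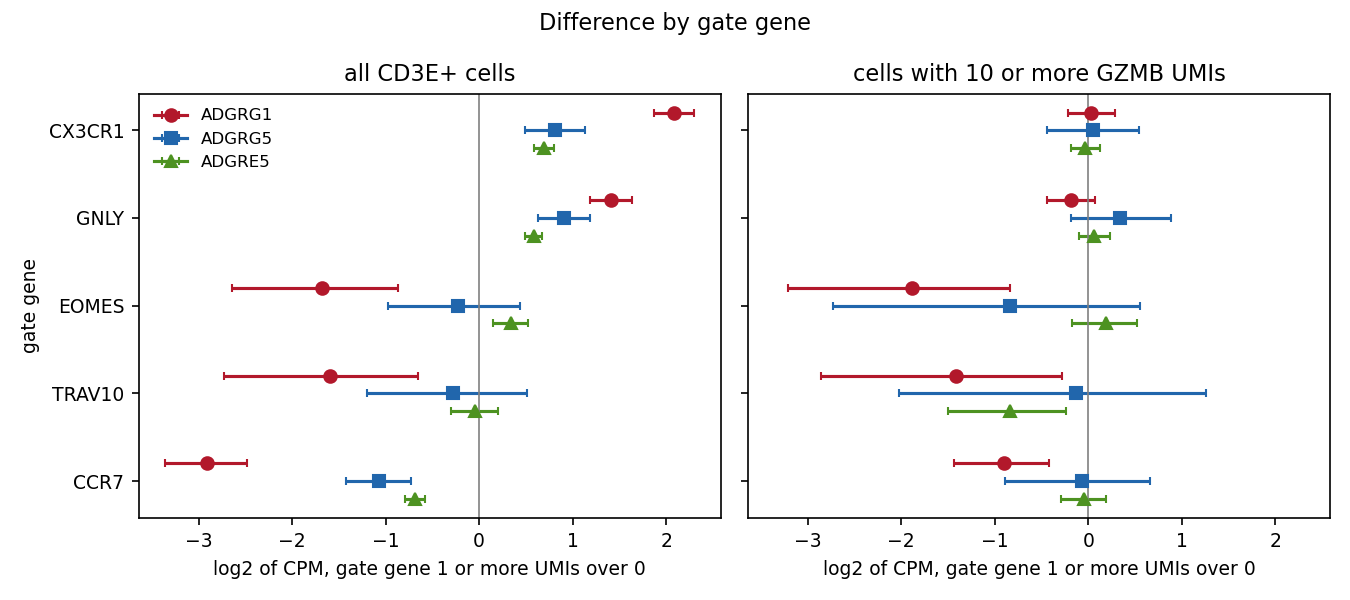
Log2 ratio of CPM of the 3 genes (x axis, points with exact 95% intervals for counting error) between cells with and without a UMI of each gate gene (y axis), over all CD3E+ cells and among those with 10 or more *GZMB* UMIs. The *ADGRG1* ratios for *CX3CR1* and *GNLY* moved from 2.08 and 1.41 to 0.03 and -0.19, and those for *EOMES*, *TRAV10* and *CCR7* stayed below 0.

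The cells with 10 or more *GZMB* UMIs were then split by T cell receptor segments that are frequent among them. With *TRBV7-3*, *ADGRG1* was at 151 CPM (125 to 181) in 214 cells, against 68.2 CPM in the 1441 others, a log2 ratio of 1.15 (0.84 to 1.45). With *TRAV12-2* it was at 109 against 73.1 CPM, a ratio of 0.57 (0.23 to 0.90), in 210 cells. With *TRAV19* it was at 63.5 against 81.5 CPM, a ratio of -0.36 (-0.70 to -0.03), in 327 cells, but the ratio was 0.13 (-0.50 to 0.71) at *GZMB* 3-9, -0.23 (-0.66 to 0.18) at 10-19 and -0.55 (-1.16 to 0.01) at 20 or more. Cells with none of these segments, 924 in number, were at 60.5 CPM (53.0 to 68.9).

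Among these groups with high *GZMB*, TRBV7-3+ cells had the highest *ADGRG1* level. Few cells were shared, with 5 cells carrying both *TRBV7-3* and *TRAV12-2*, 4 cells *TRBV7-3* and *TRAV19*, and 12 cells *TRAV12-2* and *TRAV19*. *GZMB* was also higher in the TRBV7-3+ cells, at 5639 against 4312 CPM (log2 ratio 0.39). Within narrower ranges of *GZMB* the *ADGRG1* ratio was 1.18 (0.28 to 1.98) at 3-9, 1.11 (0.66 to 1.54) at 10-19 and 1.13 (0.68 to 1.56) at 20 or more. *GZMB* remained higher in the TRBV7-3+ cells of these ranges, with log2 ratios of 0.39, 0.34 and 0.24, and its part in the *ADGRG1* ratio was not tested. A UMI of *ADGRG1* was found in 39.3% of the TRBV7-3+ cells, and after thinning in 26.4%.

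*ADGRG5* and *ADGRE5* did not show the *TRBV7-3* difference, with log2 ratios of -0.06 (-0.91 to 0.69) and 0.07 (-0.18 to 0.31). With *TRAV19* they were at -0.67 (-1.41 to 0.01) and 0.22 (0.03 to 0.40). The 34 TRBV7-3+ cells without *GZMB* had 0 *ADGRG1* UMIs. This allows a share of cells with a UMI of up to 10.3% (Clopper-Pearson) and sets no limit on expression below detection. The 22 TRAV38-1+ cells in the top *GZMB* bin were at 44.6 CPM (16.4 to 97.0, 6 UMIs in 5 cells). The 12 TRAV13-1+ cells there were at 32.7 CPM (6.74 to 95.4, 3 UMIs in 2 cells). Their median depths were 4451 and 8253.5 UMIs, and the part of depth was not tested. Receptor segments of a family share sequence, and how reads were divided among them was not tested.

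*GZMK*, a trypsin-like granzyme of memory cells, also divided the top *GZMB* bin by *ADGRG1*, and was chosen after its values had been seen. *ADGRG1* was at 90.4 CPM (82.3 to 99.1) in 1280 cells with 0 *GZMK* UMIs, 58.9 CPM (43.7 to 77.7) in 204 cells with 1-2 and 22.0 CPM (13.3 to 34.4) in 171 cells with 3 or more. The log2 ratio of cells with *GZMK* to those without was -1.17 (-1.55 to -0.80), with -1.14 at *GZMB* 10-19, -1.20 at *GZMB* 20 or more and -1.31 at *GZMB* 3-9. *ADGRG5* and *ADGRE5* had ratios of 0.48 (-0.06 to 0.99) and -0.02 (-0.20 to 0.16), with intervals that include 0.

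**Figure D4:**
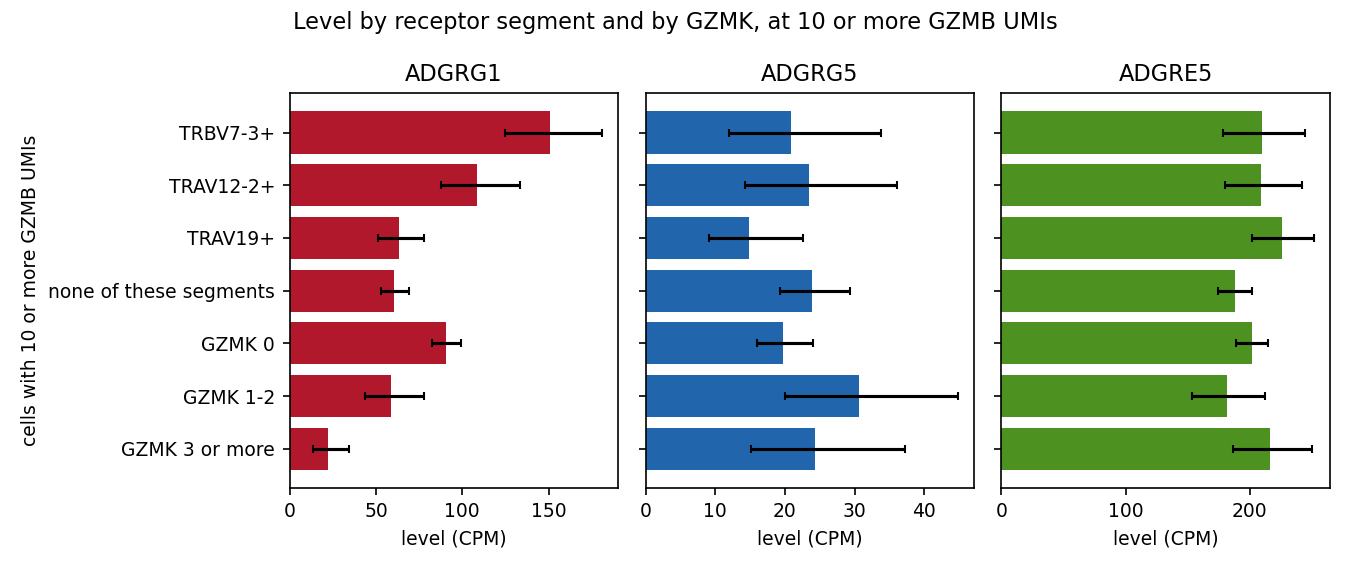
Level in CPM (x axis, one scale per gene) among CD3E+ cells with 10 or more *GZMB* UMIs, split by T cell receptor segment and by *GZMK* UMIs (y axis), as bars from 0 with exact 95% Poisson intervals for counting error. *ADGRG1* reached 151 CPM with *TRBV7-3* and fell to 22.0 CPM with 3 or more *GZMK* UMIs, while *ADGRE5* lay between 188 and 226 CPM in the receptor groups.

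Cells with an *ADGRG1* UMI were also set against cells without one at *GZMB* 10 or more (411 and 1244 cells). Of 7469 genes with at least 50 UMIs in these cells, 1 (0.0134%) was higher and 14 (0.187%) were lower by at least 1 on the CPM + 10 scale. The higher one was a feature without a symbol whose UMIs came almost all from 2 cells. Among the lower genes, *GZMK* was at 106 against 260 CPM (log2 ratio of CPM -1.29) and *PLAC8* at 19.2 against 92.5 CPM (-2.26), with a UMI in 22 of 411 and 137 of 1244 cells and 76 of its UMIs in 1 cell. *JCHAIN*, the joining chain of secreted antibodies, had 5 UMIs in 4 cells against 138 UMIs in 10 cells, *IRF8*, a transcription factor of B cells and dendritic cells, 4 UMIs in 2 cells against 121 in 10, and *LILRA3*, a leukocyte receptor, 15 UMIs in 14 cells against 179 in 36. The highest count in a single cell was 58 UMIs for *JCHAIN*, 48 for *IRF8* and 58 for *LILRA3*. The differences of *JCHAIN*, *IRF8* and *LILRA3* in level therefore rest in large part on few cells. The receptor segments *TRBV5-1* and *TRBV6-1* were also lower. *TRBV5-1* had a UMI in 2 of 411 and 29 of 1244 cells, and *TRBV6-1* in 2 and 22 of them. Their highest counts in a single cell were 19 and 13 UMIs. The part of genes of other cell types in the split was not tested. The names were chosen after their values were seen. *EOMES* and *TRAV10* had log2 ratios of -1.24 and -1.40. *GZMB*, *PRF1* and *TBX21* had log2 ratios of 0.08, 0.08 and -0.03, and *KLRD1*, *RUNX3* and *CX3CR1* were at 0.28, 0.26 and 0.19.

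Over 13 groups of CD3E+ cells that shared no cell, *ADGRG1* was lowest at 0.187 CPM in 1215 CCR7+ cells without *GZMB*. With *GZMB* 10 or more it was highest, at 82.1 CPM in 753 cells with a *CX3CR1* UMI and 82.0 CPM in 808 cells without one. Next were cells with *GZMB* 3-9 (43.8 CPM), EOMES+ cells with *GZMB* 3 or more (16.0 CPM), cells with *GZMB* 1-2 (14.9 CPM), TRAV10+ cells (8.13 CPM) and FOXP3+ cells (3.92 CPM). The neighbours from 16.0 to 8.13 CPM had overlapping intervals, and so did the groups from FOXP3+ cells down. All 5 groups without *GZMB* were at or below 1.59 CPM, and of the 108 SOX4+ CCR7+ cells without *GZMB*, none had an *ADGRG1* or *ADGRG5* UMI.

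*ADGRG5* was spread more evenly over the same groups, from 5.06 CPM in CCR7+ cells without *GZMB* to 25.3 CPM in cells with *GZMB* 3-9. Its level in CCR6+ cells without *GZMB*, 13.7 CPM (8.97 to 20.1), overlapped that of several groups with *GZMB*. *ADGRE5* ran from 69.5 CPM in CCR7+ cells without *GZMB* to 218 CPM (181 to 260) in EOMES+ cells with *GZMB* 3 or more. *ADGRG1* was at 16.0 CPM in the latter cells. The highest group was therefore a different one for each gene, although the top groups of *ADGRG5* and of *ADGRE5* overlapped with the next ones.

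**Figure D5:**
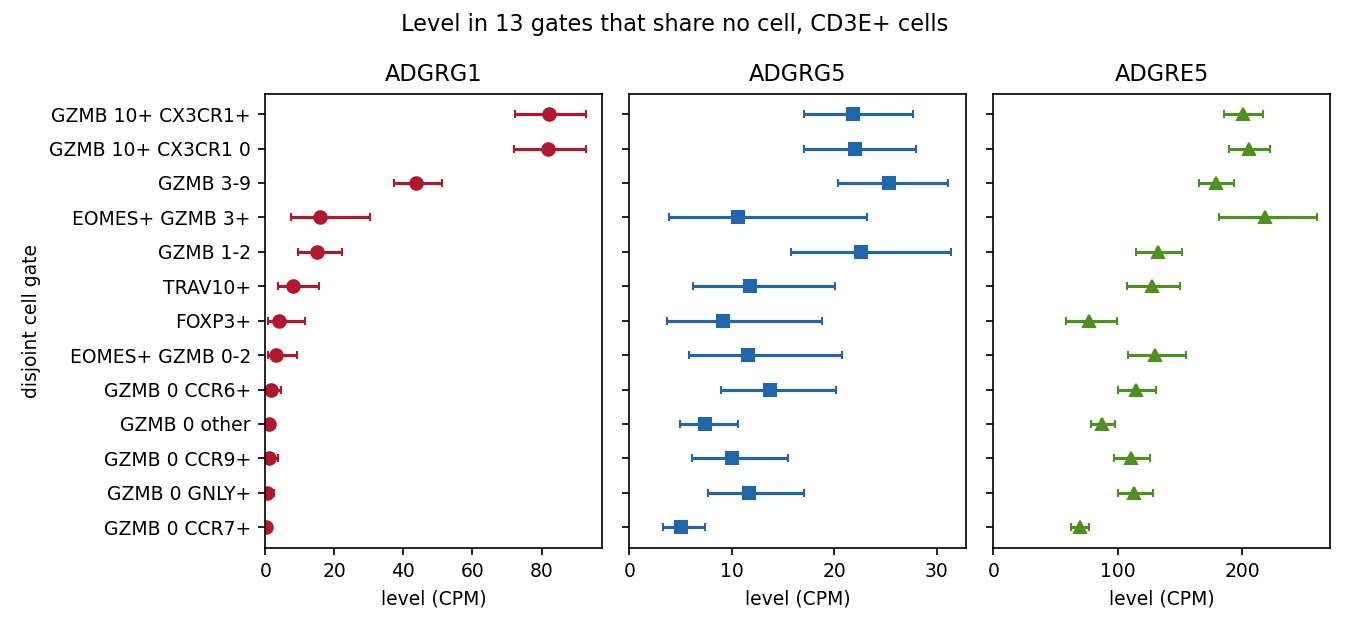
Level in CPM (x axis, one scale per gene) in 13 groups of CD3E+ cells without shared cells (y axis), as points with exact 95% Poisson intervals for counting error. Each gene had UMIs in every group. *ADGRG1* stood out in the groups with *GZMB* 10 or more (82.1 and 82.0 CPM) and was lowest at 0.187 CPM. *ADGRG5* ran from 5.06 to 25.3 CPM and *ADGRE5* from 69.5 to 218 CPM.

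The likeness of other genes to each of the 3 was measured as Pearson's r of log2(CPM + 10) over these 13 groups, which come from 1 library, among 10009 genes. Most like *ADGRG1* were *GPR141*, an orphan GPCR (r = 0.985), *MOB2*, a kinase regulator (0.980), *GK5* (0.976), *BABAM2* (0.973) and *SMIM29* (0.971). Most like *ADGRG5* were *PSAP*, the precursor of the lysosomal saposins (0.949), *TMOD3*, *LAPTM4A*, *TFEB* and *PLBD2* (0.918). Most like *ADGRE5* were *VRK1* (0.978), *CYBA*, *DAPK3*, *COPG1* and the receptor segment *TRGV1* (0.963). The 3 genes were less like each other, with r of 0.82 for *ADGRG5* and *ADGRG1*, 0.81 for *ADGRE5* and *ADGRG1* and 0.74 for *ADGRE5* and *ADGRG5*. With ranks (Spearman) none of the 5 genes for *ADGRG1* stayed among the closest 5, so the lists depend on the measure.

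Of the adhesion GPCR family, 11 of 30 genes had a UMI in CD3E+ cells and 7 had at least 50 UMIs. Of these 7, *ADGRG1* and *ADGRE5*, both chosen with these levels known, were higher by at least 1 at *GZMB* 10 or more and none was lower. Of all genes, 2.82% were higher and 1.24% lower. The median log2(CPM + 10) ratio of the 7 was 0.21, against 0.12 for all genes. The other 4, besides *ADGRG5*, were low throughout. *ADGRE2* was at 2.80 CPM at *GZMB* 0 and 4.75 CPM at *GZMB* 10 or more, a log2 ratio of 0.76 (0.07 to 1.44), and has the stretches in common with *ADGRE5* described above. *ADGRL1*, a latrophilin, was at 5.54 and 5.94 CPM, *ADGRF3* at 6.40 and 5.35 CPM and *CELSR2*, a cadherin-type member, at 5.25 and 4.16 CPM, and the intervals of these 3 ratios included 0.

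Of 9 ligand and partner genes, 7 were tested, 0 were higher and 1 was lower, beside 2.82% and 1.24% of all genes. The lower gene was *THY1*, a ligand of *ADGRE5*, at 62.5 CPM at *GZMB* 0 and 25 CPM at *GZMB* 10 or more, a log2 ratio of -1.32 (-1.57 to -1.09). *CD55*, the first known ligand of *ADGRE5*, was at 29.5 and 16.5 CPM, a ratio of -0.84 (-1.15 to -0.54), short of 1 on the CPM + 10 scale. *CD81*, a tetraspanin that binds *ADGRG1*, was at 61.7 and 72.6 CPM, and the integrin genes *ITGB1* and *ITGAV* were at 214 and 160 CPM and at 2.91 and 8.47 CPM. *COL3A1* and *TGM2*, the genes of the *ADGRG1* ligands, had 0 UMIs. The median of this list was 0.18.

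Of 13 genes of G proteins and their effectors, 11 were tested, 1 was higher and 0 were lower, beside 2.82% and 1.24% of all genes. The median of this list was 0.15. The higher one was *GNA13*, the alpha subunit through which adhesion GPCRs reach *RHOA*, at 36.4 CPM at *GZMB* 0, 69.3 CPM at *GZMB* 1-2, 83.1 CPM at *GZMB* 3-9 and 95.8 CPM at *GZMB* 10 or more, a log2 ratio of 1.40 (1.24 to 1.56). *ARRB1*, which encodes an arrestin, was at 5.65 and 21.2 CPM, a log2 ratio of 1.91 (1.53 to 2.29), and at 0.997 on the CPM + 10 scale fell just short of the limit. *RHOA* was at 569 and 890 CPM and *ARRB2* at 164 and 281 CPM. *GNAQ*, at 23.2 and 19.9 CPM, and *ARHGEF1*, the *RHOA* activator of leukocytes, at 273 and 304 CPM, moved less. *GNA12* was at 2.17 and 1.93 CPM. *ARHGEF11* went down, from 4.63 to 1.34 CPM, a log2 ratio of -1.79 (-2.97 to -0.80), and was at -0.37 on the CPM + 10 scale.

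Genes of the killing programme give the setting of *ADGRG1*. Of the 5 transcription factors tested, 4 were higher at *GZMB* 10 or more, namely *TBX21* (6.91 and 62.8 CPM), *RUNX3* (39.2 and 200 CPM), *BHLHE40* (79.7 and 266 CPM) and *PRDM1* (22.2 and 71.4 CPM), and *EOMES*, at 16.8 and 10.5 CPM, was not. Of 9 cytotoxic genes tested 8 were higher, and *GZMK*, at 205 and 221 CPM, was not. Of all genes, 2.82% were higher and 1.24% lower. The medians were 1.62 for the factors and 2.62 for the cytotoxic genes. *S1PR5* (1.26 and 52.7 CPM) and *FGFBP2* (0.742 and 33.4 CPM) had raw log2 ratios of 5.39 and 5.49, the latter and the 6.60 of *ADGRG1* resting on 13 and 14 UMIs at *GZMB* 0. *ZNF683*, a further factor of this programme, was not analysed here.

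A list of other lymphocyte GPCRs had 10 genes tested, of which 0 were higher and 1 was lower, beside 2.82% and 1.24% of all genes. The lower one was *GPR183*, the oxysterol receptor, at 338 and 75.3 CPM (log2 ratio -2.17). *S1PR1*, the receptor for exit from lymph nodes, was at 257 and 145 CPM (-0.83), *P2RY8*, a receptor of B and T cells, was at 74.1 and 101 CPM (0.45, 0.31 to 0.58), and the median of the list was -0.27. GPCR genes outside this list were higher, among them *S1PR5*, given above, and *CX3CR1* at 2.63 and 191 CPM (6.18). Reported genes near *ADGRG1* for which a ratio could be taken were below its 6.60, and those near *ADGRE5* below its 1.12. Before *ADGRG1*, *CCDC102A* was at 1.88 and 3.71 CPM (log2 ratio 0.98, 0.17 to 1.77) and *DOK4* at 0.40 and 1.04 CPM (1.38, -0.36 to 3.12). Before *ADGRE5*, *ADGRL1* was at 5.54 and 5.94 CPM (0.10) and *ASF1B* at 9.48 and 16.6 CPM (0.81, 0.45 to 1.17). *DDX39A*, after *ADGRE5*, was at 122 and 164 CPM (0.43).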

How the data were processed

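Reads of the RNA and tag libraries of 1 sample were aligned by the authors with STAR 2.5.1b and counted with Cell Ranger 3.1.0 on Mmul_10. The deposited values are UMI counts per barcode for each gene or tag, not normalized. No annotation release is named in the sources used here. A gene name table matched 24186 of the 35432 IDs and supplied the symbol *GNLY*. As in the study's methods, the filter kept barcodes that had 200 to 4000 genes and no more than 20% of UMIs from mitochondrial genes. The study's limit of 3 or more cells per gene was not applied to the levels, which were taken from all 35432 genes. B gene cells had no UMI of *CD3E*, *CD3D* or *CD3G* and 3 or more of B cell genes. All barcodes were distinct. No doublet caller was run; an alternative left out the 5% of cells with the most UMIs.

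The genes and gene lists were chosen with earlier results of these data known. Position and sequence of *ADGRG5*, and some neighbouring genes, are not reported here. The text names the 3 genes, the gate genes, genes of the lists, the 5 genes most like each and chromosomal neighbours, and says where a name was added. CPM, exact Poisson and Clopper-Pearson intervals, thinning with a fixed seed and ratios were computed in Python 3.11.15 with numpy 2.4.6, scipy 1.17.1 and pandas 2.3.3, and plots were drawn with matplotlib 3.10.9. With 1 sample there was no test, no SE and no p-value. Genes were counted as higher or lower past a log2 of 1 on the CPM + 10 scale, with at least 50 UMIs. Tested on simulated data for *GZMB* 10 or more over *GZMB* 0, this rule called 84% of genes raised 4-fold, 4% of genes raised 2-fold, 48% of genes lowered 4-fold, 2% of genes lowered 2-fold and 0% of 9819 unchanged genes. The simulated counts carried counting error only, without a spread between cells. The last value therefore does not cover calls that rest on single cells with many UMIs. Sequences were read from the Mmul_10 genome with RefSeq annotation. Alternatives changed the filter, T cell gate, depth, summary, limits, pseudocount and measure of likeness.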

Additional observations from a re-analysis of the deposited data

Results flagged for a closer look

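*ADGRG1* also had UMIs in cells that the comparisons above leave out. In the 290 kept cells without a *CD3E* UMI it was at 13.4 CPM (6.94 to 23.5), with 12 UMIs in 10 cells. Of these cells, the 24 with 10 or more *GZMB* UMIs held 4 *ADGRG1* UMIs (41.5 CPM, 11.3 to 106) and the 216 without *GZMB* held 2 (2.82 CPM). In the 322 barcodes that failed the filter it was at 17.8 CPM (11.3 to 26.7), with 23 UMIs in 16 barcodes. Both groups hold cells with and without *GZMB*, and their *ADGRG1* levels lie below the 23.9 CPM of all CD3E+ cells. *GZMB* was at 981 CPM in the kept cells without *CD3E* and 666 CPM in the failing barcodes, against 1240 CPM in all CD3E+ cells. Both *ADGRG1* levels lie above the 0.80 CPM of CD3E+ cells without *GZMB*. The 86 B gene cells are part of the 290 kept cells without *CD3E*. They held 0 *ADGRG1* UMIs, which allows up to 9.29 CPM, and 263 *GZMB* UMIs in 7 cells, 147 of them in 1 cell. What the barcodes of these groups are was not tested.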

How the results depend on the processing

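Of 498 alternative values for 63 results, 457 stayed within counting error of the value given or, for counts of genes, within 1.5 times, and 41 moved. No ratio whose interval excluded 0 changed sign among the moved ones. All 30 alternatives of the ratio of *GZMB* 10 or more to *GZMB* 0 were alike, with 6.43 to 6.82 for *ADGRG1*, 1.08 to 1.47 for *ADGRG5* and 1.08 to 1.22 for *ADGRE5*. Ranges within *GZMB* 10 or more were 0.84 to 1.19 for *TRBV7-3* and -1.29 to -0.95 for *GZMK* with *ADGRG1*. The bins from thinned counts, the gates *TRBV7-3*, *TRAV12-2*, *TRAV19* and *GZMK* and the narrower *GZMB* ranges were alternatives chosen after seeing the data.

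Thinning to 2000 UMIs moved the *CX3CR1* ratio of *ADGRE5* to 0.58, the *TRAV10* ratios of *ADGRG5* and *ADGRE5* to 0.63, a change of sign, and -0.41 and the *CCR7* ratios of *ADGRG1* and *ADGRE5* to -3.77 and -0.90. The mean over cells gave -3.73 and -0.82 for these *CCR7* ratios and 1.13 for *GNLY* with *ADGRG1*, and leaving out the deepest 5% of cells gave -3.65 and -0.97 for *CCR7*. With 2 or more UMIs of the gate gene, *CX3CR1* with *ADGRG1* was 2.40 and *EOMES* with *ADGRG5* -1.11. Within *GZMB* 10 or more, thinning gave 0.57 for *EOMES*, a change of sign, and -0.92 for *CCR7* with *ADGRG5*, and bins from thinned counts gave -0.79 for *EOMES* with *ADGRG1*, 1.66 for *EOMES* with *ADGRG5* and -1.06 for *CCR7* with *ADGRE5*. At *GZMB* 3-9, *TRAV10* with *ADGRE5* was -1.40 with thinning and -1.79 with bins from thinned counts, which gave 1.75 for *TRAV10* with *ADGRG5*. Shares of cells at *GZMB* 0 and at *GZMB* 10 or more, thinned to 2000 and to 1000 UMIs, were 0.156% and 0.151%, 15.4% and 8.53% for *ADGRG1*, 1.72% and 0.906%, 3.74% and 2.36% for *ADGRG5*, and 16.1% and 8.16%, 32.2% and 18.0% for *ADGRE5*, by their construction from fewer UMIs. Against 283 higher and 124 lower genes, CPM + 1 gave 678 and 495, and CPM + 50 gave 94 and 22. Of the 5 genes most like each gene, log2(CPM + 1) kept 2 for *ADGRG1* and 3 for *ADGRG5*, and Spearman's rho kept 0 for *ADGRG1*, 2 for *ADGRG5* and 1 for *ADGRE5*. For the other moved values the cause was not tested.

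The RNA and tag libraries are of the same cells and were read together by barcode. No paired test was run, since the results come from no test. With 1 animal, the spread between animals is unknown, and the low counts of *ADGRG1* and *ADGRG5* limit what can be seen in single cells: values on fewer than 10 UMIs, as with *EOMES* and *TRAV10* at *GZMB* 10 or more, have wide intervals. Shares of cells depend on depth. *ADGRE5* counts carry the limit of stretches shared with *ADGRE2*.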
